A study of Rattus norvegicus with 743 samples.

Results

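Clarithromycin, erythromycin and telithromycin are macrolide antibiotics given here to rats at 1 dose, and their effects on liver RNA are compared. The libraries were chosen by their treatment label: 12 libraries from 12 animals, 4 animals per drug, of 743 libraries from 680 animals in the whole series. The series sequenced poly(A) RNA from frozen livers of rats that received many different pharmaceuticals. Every animal used here was male and was killed the day after its last dose. Clarithromycin and erythromycin were given to Han Wistar rats of 1 study at 600 mg/kg/day for 4 days in 0.5% methylcellulose in water, and the 4 vehicle rats of that study received the methylcellulose for the same 4 days. Telithromycin was given to Sprague Dawley rats of another study at the same dose, time and vehicle, beside 4 vehicle rats of its own. Ages and the route of dosing are not given in the sources used here. Erythromycin and clarithromycin can be compared directly, because they share strain, study and vehicle animals. For telithromycin only the difference from its own vehicle group can be set against theirs, and there the compound and the strain and study cannot be told apart.

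Macrolides block protein synthesis on the bacterial ribosome. Clarithromycin is erythromycin with 1 hydroxyl group turned into a methyl ether. Telithromycin is a ketolide: it lacks the cladinose sugar of erythromycin, carries a keto group in its place, and has a carbamate with an aromatic side chain. In liver, many drugs bind the pregnane X receptor (PXR), which raises transcription of the Cyp3a genes, the cytochrome P450 enzymes that oxidise a large share of medicines. PXR also raises transferases, esterases and transporters, the related receptor CAR raises Cyp2b genes, and NRF2 raises genes that defend against oxidants and electrophiles.

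The sequences below are shown because, of 21 promoter windows searched for 20 genes (chosen with results known), these 2 hold a DR3 motif, one form of the element that PXR binds. They are RefSeq promoter windows (build GRCr8, 250 bases before to 50 bases after the annotated start, 5′ to 3′ on the strand of the gene). Capitals mark the DR3 motif, spelled AGNTCANNNAGNTCA and searched on both strands. Cyp3a23-3a1 lies on the minus strand at chr12:14398754-14399053 and has 1 DR3 match, starting 144 bases before the start. Cyp3a2, also on the minus strand, at chr12:14343808-14344107, has 2.
Cyp3a23-3a1: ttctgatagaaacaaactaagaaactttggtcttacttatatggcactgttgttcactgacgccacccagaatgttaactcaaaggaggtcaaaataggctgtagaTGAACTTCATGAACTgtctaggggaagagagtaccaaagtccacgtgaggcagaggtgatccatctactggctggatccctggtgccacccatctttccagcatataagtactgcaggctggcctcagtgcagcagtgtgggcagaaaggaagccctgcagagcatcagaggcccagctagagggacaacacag
Cyp3a2: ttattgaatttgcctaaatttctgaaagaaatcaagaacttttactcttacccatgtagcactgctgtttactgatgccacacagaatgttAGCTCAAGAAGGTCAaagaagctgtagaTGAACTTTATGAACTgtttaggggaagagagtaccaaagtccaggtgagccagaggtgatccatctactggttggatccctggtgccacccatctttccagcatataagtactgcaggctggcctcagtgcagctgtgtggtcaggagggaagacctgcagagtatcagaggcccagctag

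The DR3 motif stands in 26 of 33469 promoter windows, 0.078%. The other 19 windows searched hold no match to DR3, DR4 (AGNTCANNNNAGNTCA) or ER6 (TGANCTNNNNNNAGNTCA). Among them are those of Cyp3a18, Cyp3a62, Cyp3a9, Cyp2c24, Ugt1a2, Slco1a4, Cyp2b2, Ces2 and Ces2i, genes described below, and the absence of a match says only that these letters are not in these windows. A match is a description of the sequence and not a measured binding site.

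Library totals were 16.32 to 20.54 M counts (M, mega) for erythromycin, 17.94 to 20.64 M for clarithromycin, 16.68 to 23.2 M for telithromycin and 13.49 to 25.77 M for the 20 vehicle libraries, which were summed within animals. The hepatocyte markers summed to between 88400 and 236000 CPM (counts scaled to a common library total) in every animal, and no hepatocyte marker was at 0. RNA integrity numbers lay between 7.4 and 9.0. Clarithromycin and erythromycin libraries carried library numbers of different series and shared 1 flow cell. Each Han Wistar vehicle animal had been sequenced in both of these number series. Between its 2 libraries, 657 of 12650 genes differed, 5.19%, although only 7 of these differed by a log2 fold change of 1 or more. Many results that compare clarithromycin with erythromycin are therefore given also with each drug set against the vehicle library nearest to it in number. This is called the nearest-library comparison below. Where no such value is printed, the difference is given without that check. Telithromycin animal 3 was sequenced on flow cell C3GVFACXX, which no vehicle library of its study shared, and the other telithromycin animals on C370MACXX. Each Sprague Dawley vehicle animal had 1 library numbered near those of telithromycin and 1 in another number series. The part of the flow cell in the values of telithromycin animal 3 was not tested. Labels and files do not say whether animals of a group were housed or processed together, so p-values measure the spread between these animals.

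**Figure D1:**
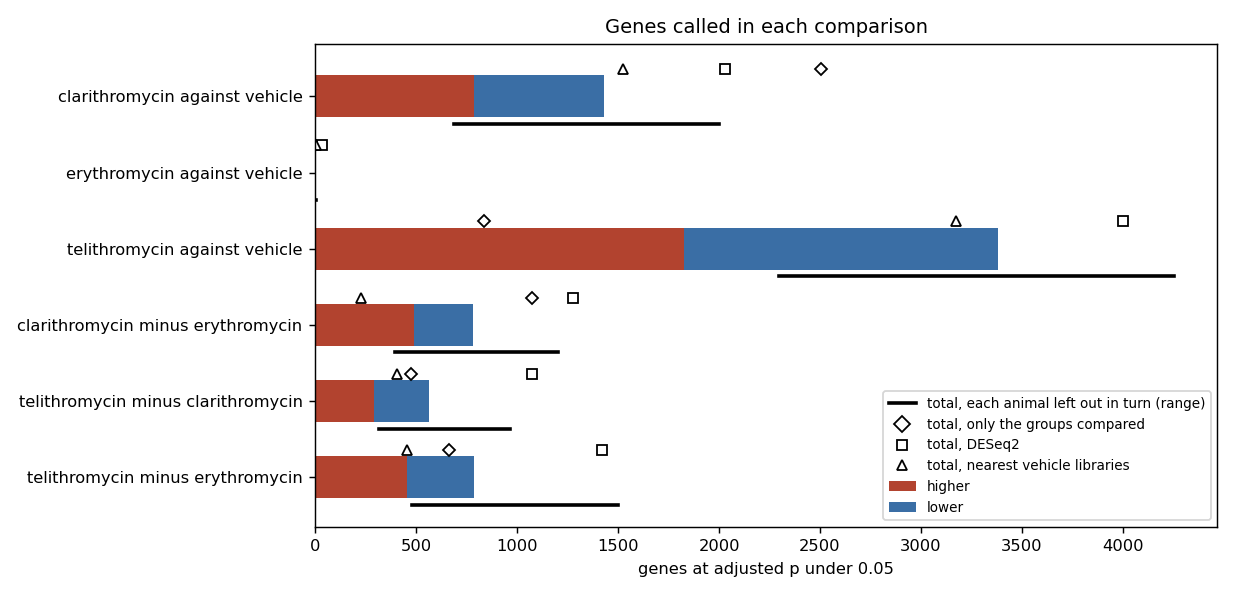
Genes at an adjusted p under 0.05 in each comparison, split into higher and lower, of 13320 genes tested. Clarithromycin and telithromycin called 1430 and 3382 genes against vehicle, and erythromycin called 1.

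Clarithromycin and telithromycin changed many liver genes and erythromycin changed 1. Changes are log2 fold changes from 1 fit of all 20 animals, printed with their standard error (SE) or their 95% interval; p-values come from edgeR's quasi-likelihood test, adjusted over genes, with a threshold of 0.05. Clarithromycin against vehicle raised 784 of 13320 genes (5.89%) and lowered 646 (4.85%). Telithromycin against its vehicle raised 1826 (13.7%) and lowered 1556 (11.7%). Erythromycin raised none (0%) and lowered 1 (0.00751%), the ATPase gene Tor3a, while 1055 genes had an unadjusted p under 0.05 and DESeq2 called 35. With only the 2 groups compared in the fit, clarithromycin called 2507 genes and telithromycin 834, and telithromycin animals covered wide ranges in many of the genes named here. Without vehicle animal 2, clarithromycin called 686, and without clarithromycin animal 2, 689. Clarithromycin and telithromycin, which share no control animals, had 674 called genes in common, 47.1% of those of clarithromycin and 19.9% of those of telithromycin, and 638 of them moved in the same direction. Telithromycin calls took 25.4% of all genes tested.

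Pairwise, 3 differences between drugs were tested, with p-values adjusted over genes and pairs together. Clarithromycin exceeded erythromycin in 491 genes (3.69%) and lay below it in 291 (2.18%). In the nearest-library comparison these 782 calls became 229, of which 212 were among the 782. The telithromycin effect exceeded the clarithromycin effect in 291 genes (2.18%) and lay below it in 273 (2.05%). It exceeded the erythromycin effect in 455 genes (3.42%) and lay below it in 329 (2.47%). The typical 95% interval of a difference reached 0.361 to either side for clarithromycin against erythromycin and 0.503 for telithromycin against clarithromycin, so smaller differences in most genes could not be resolved.

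Cyp3a RNA rose strongly under clarithromycin and telithromycin. Levels in CPM are scaled between libraries by the TMM method, which are not divided by gene length and so do not rank genes against each other. Cyp3a23/3a1 (ENSRNOG00000032560), the main inducible rat Cyp3a, stood at 3044, 3312, 2784 and 3692 CPM in the Han Wistar vehicle animals and at 44470, 42710, 41600 and 41800 CPM under clarithromycin. The erythromycin animals had 6700, 6487, 6505 and 4143 CPM. Every erythromycin animal lay above every vehicle animal and below every clarithromycin animal, with 1 erythromycin animal well below its other 3.

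In the Sprague Dawley study Cyp3a23/3a1 stood at 3727, 2674, 3037 and 3477 CPM in vehicle animals and at 40470, 55810, 33820 and 42430 CPM under telithromycin. Those ranges are far apart, and the telithromycin animals covered a wider range than the clarithromycin animals. The log2 fold change of Cyp3a23/3a1 was 3.73 ± 0.19 (SE) for clarithromycin (adjusted p = 1.1e-09) and 3.74 ± 0.19 for telithromycin (adjusted p = 1.07e-09). For erythromycin it was 0.89 ± 0.17, with a 95% interval from 0.53 to 1.25 and an adjusted p of 0.155 over all genes, which does not pass. DESeq2 passed this gene, as did the nearest-library comparison (log2 fold change 1.01, adjusted p = 0.0392).

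The pairs followed the same pattern in Cyp3a23/3a1. Clarithromycin lay above erythromycin by 2.84 on the log2 scale (adjusted p = 1.96e-07), and by 2.62 in the nearest-library comparison (adjusted p = 2.49e-05). The telithromycin effect exceeded the erythromycin effect by 2.85 (adjusted p = 6.95e-06). Between telithromycin and clarithromycin no difference was detected: it was 0.01, with a 95% interval from -0.50 to 0.51, which does not show that they act alike, and a difference within that interval could not be resolved.

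**Figure D2:**
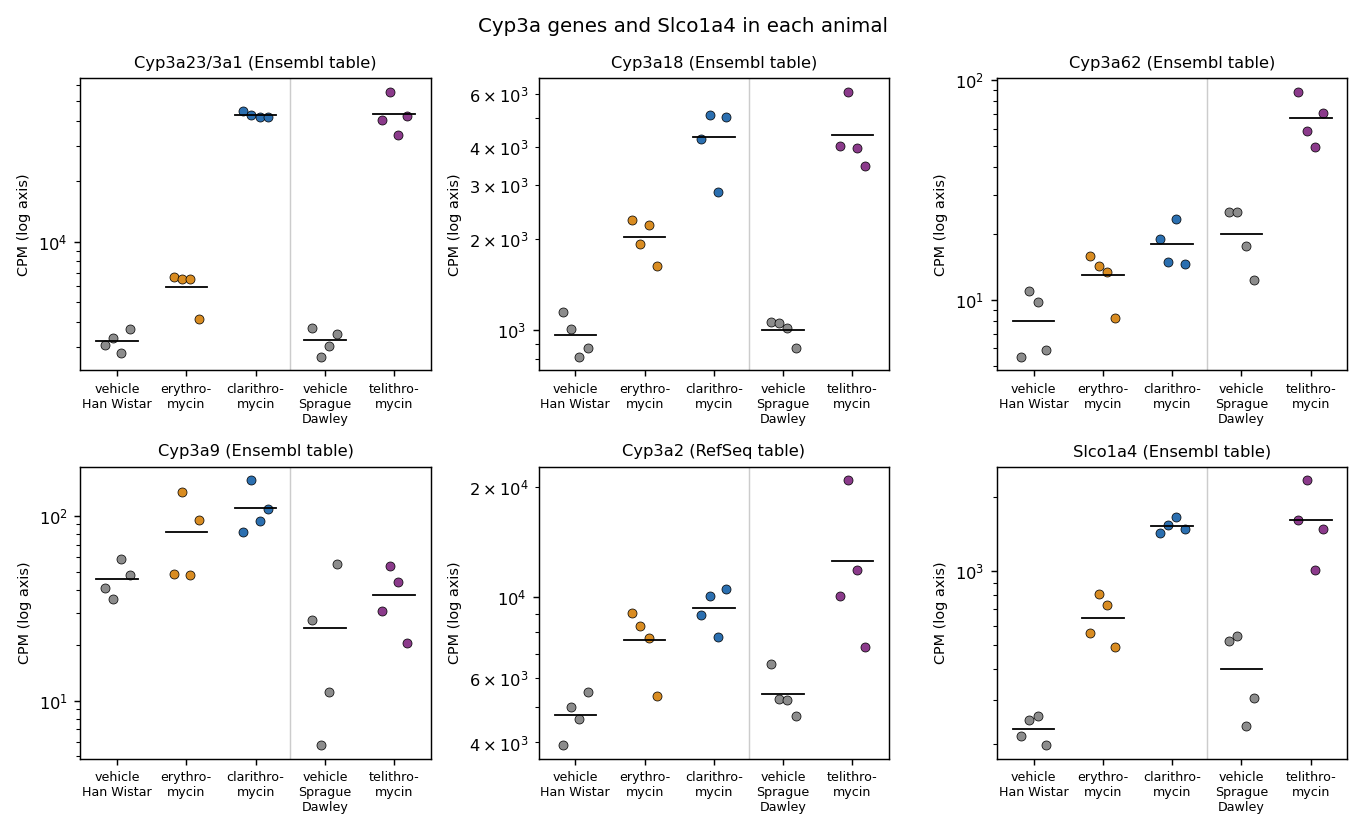
CPM per animal on a log axis for the Cyp3a genes and the transporter Slco1a4, with Han Wistar groups left of the grey line and Sprague Dawley groups right of it; each point is 1 animal and each bar the group mean. For Cyp3a23/3a1 the erythromycin animals sit between 4143 and 6700 CPM, above their vehicle animals and below all clarithromycin animals.

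Cyp3a18, a second liver Cyp3a, followed the same order. Vehicle animals had 1148, 1002, 814.1 and 867.8 CPM, erythromycin animals 2310, 1925, 2213 and 1622, and clarithromycin animals 4278, 5121, 2858 and 5059, so the 3 Han Wistar groups did not overlap. Under telithromycin Cyp3a18 stood at 4043, 6113, 3978 and 3472 CPM against 1060, 1052, 1010 and 870.7 in vehicle animals. It rose by 2.18 under clarithromycin and 2.14 under telithromycin. Its log2 fold change under erythromycin was 1.07 (adjusted p = 0.128), which passed in DESeq2 and in the nearest-library comparison (1.17, adjusted p = 0.0392). Clarithromycin lay above erythromycin in Cyp3a18 by 1.101 (adjusted p = 0.00483), a call that the nearest-library comparison did not keep (0.95, adjusted p = 0.0536). The telithromycin effect on Cyp3a18 differed from that of clarithromycin by -0.04, with a 95% interval from -0.61 to 0.54.

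Cyp3a62, a minor Cyp3a, rose less. It had 5.504, 10.91, 9.803 and 5.892 CPM in Han Wistar vehicle animals, 15.87, 14.27, 13.38 and 8.263 under erythromycin and 18.98, 14.85, 23.29 and 14.55 under clarithromycin. Only erythromycin overlapped the vehicle animals, through its lowest animal. Telithromycin animals had 88.44, 58.63, 49.79 and 70.71 CPM and their vehicle animals 25.07, 25.09, 17.55 and 12.26. The log2 fold change of Cyp3a62 was 1.16 for clarithromycin (adjusted p = 0.0145), 0.69 for erythromycin (adjusted p = 0.58) and 1.75 for telithromycin (adjusted p = 0.00042). Cyp3a9, a Cyp3a known to be higher in female rats, stood at 40.56, 35.7, 58.3 and 48.08 CPM in Han Wistar vehicle animals and 82.03, 155.8, 94.16 and 109.6 under clarithromycin, without overlap, but passed under no drug, with log2 fold changes of 1.27 for clarithromycin (adjusted p = 0.12), 0.84 for erythromycin and 0.58 for telithromycin. Thus 3 of the 4 Cyp3a genes of this table rose under clarithromycin and 3 under telithromycin, with list medians of 1.72 and 1.94 against about 0 over all genes (-0.008 and -0.007). Erythromycin called 0 of 4 in edgeR, with a median of 0.865 against 0.000, while 3 had an unadjusted p under 0.05 and DESeq2 called 2.

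The Cyp3a genes are near-identical in parts, so counting can split reads among them in different ways. The deposited RefSeq gene table lists Cyp3a2, the constitutive Cyp3a of the male rat, which the Ensembl table does not name. In it Cyp3a2 stood at 3927, 4994, 4631 and 5483 CPM in Han Wistar vehicle animals, 9066, 8315, 7738 and 5344 under erythromycin and 8953, 10040, 7755 and 10530 under clarithromycin. Here erythromycin and clarithromycin overlapped each other, unlike for Cyp3a23/3a1. The log2 fold change of Cyp3a2 was 0.97 for clarithromycin (adjusted p = 0.0185), 0.68 for erythromycin (adjusted p = 0.532) and 1.20 for telithromycin (adjusted p = 0.00236). Clarithromycin and erythromycin differed in Cyp3a2 by 0.29, with a 95% interval from -0.219 to 0.801. The same table gave Cyp3a23-3a1 log2 fold changes of 4.75, 1.17 (adjusted p = 0.133) and 5.22 for clarithromycin, erythromycin and telithromycin, larger than in the Ensembl table, with the same drugs called. Both genes carry the DR3 motif printed above.

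Beside Cyp3a, 18 other genes known to be raised by PXR were listed. Clarithromycin raised 14 of them and telithromycin 13, lowered none, and their median log2 fold changes were 1.92 and 2.06. Over all genes these drugs raised 5.89% and 13.7%. Erythromycin raised 0 of 18 in edgeR, with a median of 0.41; 5 had an unadjusted p under 0.05 and DESeq2 called 2. Read another way, without a test, every erythromycin animal lay above every vehicle animal in 5 of these 18 genes and in 2 of the 4 Cyp3a genes, where 461 of all 13320 genes did so (3.46%). The same separation was seen for clarithromycin in 17 of the 18, where it was seen in 12.5% of all genes, and for telithromycin in 12, where it was seen in 9.58%.

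Ugt1a2, a glucuronosyltransferase, stood at 4.422, 2.685, 4.297 and 3.305 CPM in Han Wistar vehicle animals, 5.441, 10.79, 6.793 and 2.966 under erythromycin, and 307.8, 305.6, 375.7 and 134.4 under clarithromycin. Telithromycin animals had 387.7, 155.9, 100.3 and 210.9 CPM against 1.366, 1.296, 0.981 and 0.554 in vehicle animals. Erythromycin overlapped vehicle, whereas both other drugs stood entirely apart from it. Ugt1a2 rose by 6.26 under clarithromycin and 7.68 under telithromycin, and clarithromycin exceeded erythromycin by 5.44 (adjusted p = 1.25e-05). The P450 gene Cyp2c24 rose by 6.40 and 7.86; its erythromycin animals, at 10.43, 13.13, 9.753 and 3.284 CPM, all lay above their vehicle animals, which had at most 2.301, but the log2 fold change of 2.69 had an adjusted p of 0.40. For Cyp2c24 the excess of clarithromycin over erythromycin was 3.71 (adjusted p = 0.0062) and was not called in the nearest-library comparison (3.17, adjusted p = 0.11).

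Among transporters, Slco1a4, which takes bile salts and drugs into hepatocytes, separated all 3 Han Wistar groups. Vehicle animals had 214.2, 250.2, 258 and 196.5 CPM, erythromycin animals 561.4, 807.1, 732.5 and 490.9, and clarithromycin animals 1432, 1542, 1655 and 1489. The telithromycin animals had 1613, 2340, 1013 and 1480 CPM against 519.3, 546.7, 234.8 and 306.7. Slco1a4 rose by 2.73 and 2.00 under clarithromycin and telithromycin. It had the smallest p of any gene not called under erythromycin, with a log2 fold change of 1.50 (adjusted p = 0.11), and was called by DESeq2 and by the nearest-library comparison. Abcc3, a basolateral export pump, rose by 2.83 under clarithromycin and 3.65 under telithromycin, the latter over animals from 6.35 to 109.5 CPM. The P-glycoprotein gene Abcb1a, named in the RefSeq table only, rose by 1.85 and 1.03 under those drugs and had a log2 fold change of 0.30 under erythromycin (adjusted p = 0.787).

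The telithromycin effect exceeded the clarithromycin effect in 1 of the 18 PXR-regulated genes, Ces2a, and lay below it in 0 (2.18% and 2.05% of all genes). Ces2a encodes a carboxylesterase, an enzyme that hydrolyses ester drugs. It stood at 118.3, 79.05, 77.17 and 95.85 CPM in Han Wistar vehicle animals, 67.51, 92.42, 84.95 and 180.1 under erythromycin and 390.7, 750.3, 416.2 and 514.3 under clarithromycin. Telithromycin animals had 1058, 778.7, 885.3 and 1407 CPM and their vehicle animals 16.65, 27.08, 26.96 and 46.01. The vehicle animals of the 2 strains did not overlap for Ces2a, the Sprague Dawley animals being lower. Ces2a rose by 2.48 under clarithromycin and 5.14 under telithromycin, a difference of 2.66 (adjusted p = 0.0039). The carboxylesterase genes Ces2i and Ces2 are in no list here under these names. A gene named Ces2c in the RefSeq table had log2 fold changes near those of Ces2, at 3.20 under clarithromycin and 4.75 under telithromycin. Ces2i and Ces2 rose by 3.46 and 3.19 under clarithromycin and by 4.96 and 4.73 under telithromycin. The differences were 1.50 (adjusted p = 0.017) and 1.54 (adjusted p = 0.014). For both, treated levels overlapped between the studies and vehicle levels did not: Ces2i averaged 16.34 CPM under clarithromycin and 16.0 under telithromycin, over 1.49 and 0.51 in their vehicle animals, and Ces2 averaged 676.3 and 616.9 over 74.19 and 23.29. For Ces2, erythromycin animals had 138, 243.6, 191.4 and 107.4 CPM against 97.68, 62.05, 83.04 and 53.99, again all above vehicle, with a log2 fold change of 1.20 and an adjusted p of 0.19. In these differences the compound and the strain and study cannot be told apart.

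Of 12 genes known to be raised by CAR, clarithromycin raised 6 and telithromycin 7, where 5.89% and 13.7% of all genes were raised. Erythromycin raised 0 in edgeR, with 1 at an unadjusted p under 0.05 and 0 with DESeq2. Clarithromycin exceeded erythromycin in 5 (3 in the nearest-library comparison), where it did so in 3.69% of all genes. Gene lists share members, so their counts are not separate results: Gsta3 and Abcc3 are also PXR-regulated genes here, and Ephx1 is also an NRF2 target. Cyp2b2, the reference CAR target, stood at 161.8, 164.4, 150.1 and 99.75 CPM in vehicle animals and 128.9, 192, 251.2 and 194.5 under erythromycin. Under clarithromycin it stood at 509.1, 609.2, 371.3 and 532.2 CPM. It rose by 1.81 under clarithromycin and 2.86 under telithromycin. Erythromycin overlapped vehicle, with a log2 fold change of 0.41 and a 95% interval from -0.18 to 1.01. Alas1, which starts heme synthesis, had 192.7, 331.3, 265.4 and 207.6 CPM in vehicle animals, 168.1, 195.7, 201.1 and 104.2 under erythromycin and 843.6, 1477, 1126 and 1218 under clarithromycin. It rose by 2.23 under clarithromycin, and clarithromycin exceeded erythromycin by 2.80 (adjusted p = 0.0018). Telithromycin raised Alas1 by 1.17, but its animals (514.3, 782.6, 215.5 and 1139 CPM) overlapped their vehicle animals (204.8, 455.3, 181.6 and 335.8), and the call was lost without the count filter, with only those 2 groups in the fit, with RNA integrity as covariate, and without telithromycin animal 2 or 4 or vehicle animal 1, 3 or 4.

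NRF2 targets rose under the same pair of drugs. Of 23 tested, clarithromycin raised 12 and telithromycin 12, with median log2 fold changes of 0.85 and 0.88, where 5.89% and 13.7% of all genes were raised. Erythromycin called 0 in edgeR and DESeq2, 1 at an unadjusted p under 0.05, with a median of 0.08. Clarithromycin exceeded erythromycin in 10 of 23 (6 in the nearest-library comparison), where it did so in 3.69% of all genes before that comparison. Gsr, which regenerates reduced glutathione, stood at 64.5, 74.13, 61.47 and 74.07 CPM in vehicle animals, 71.74, 67.19, 71.16 and 66.69 under erythromycin and 220, 279.7, 205.5 and 192.9 under clarithromycin. Telithromycin animals had 298.4, 201.3, 119.6 and 332.6 CPM against 59.05, 69.42, 72.98 and 72.1. Gsr rose by 1.71 under clarithromycin and 1.80 under telithromycin, and these differed by 0.09 with a 95% interval from -0.54 to 0.71. For erythromycin the log2 fold change was 0.01, with a 95% interval from -0.43 to 0.46, and clarithromycin exceeded it by 1.70 (adjusted p = 0.00046).

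Gpx2, a glutathione peroxidase, is named among the largest increases of both drugs. Its RefSeq promoter window (GRCr8, minus strand, chr6:101229984-101230283) is shown because it holds the letters TGACNNNGC, searched on both strands and marked in capitals. They are a short form of the antioxidant response element, the sequence NRF2 binds. That short motif stands in 4038 of the 33469 windows, 12.065%. Of the 21 windows searched, that of Ttc39a and 1 of Gsta3 hold it too. A match this common is not a measured binding site and says nothing on NRF2 here.
Gpx2: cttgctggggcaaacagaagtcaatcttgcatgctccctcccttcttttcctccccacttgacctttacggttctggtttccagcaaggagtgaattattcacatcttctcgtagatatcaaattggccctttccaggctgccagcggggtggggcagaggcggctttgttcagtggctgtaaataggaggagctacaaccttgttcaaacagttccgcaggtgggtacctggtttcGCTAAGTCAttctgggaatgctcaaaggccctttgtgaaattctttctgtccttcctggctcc

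Gpx2 was close to 0 in vehicle animals, at 0.767, 0.8148, 0.1043 and 0.1026 CPM, and in erythromycin animals, at 0.2519, 0.2997, 0.06726 and 0.7946. Clarithromycin animals had 10.98, 21.43, 17.81 and 14.17 CPM. Telithromycin animals had 12.51, 3.741, 7.309 and 69.73 CPM, with 1 animal far above the others, against at most 0.2881 in vehicle animals. The log2 fold changes were 5.15 and 7.27; at such low vehicle levels their size depends on few reads. Clarithromycin exceeded erythromycin in Gpx2 by 5.44, a call lost in the nearest-library comparison (5.74, adjusted p = 0.0612).

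The transferase Gsta5 rose by 2.83 under clarithromycin and 2.43 under telithromycin, and the epoxide hydrolase Ephx1 by 1.45 and 1.51; for Ephx1 the erythromycin log2 fold change was 0.17, with a 95% interval from -0.30 to 0.64. The Gsta genes share sequence, so how reads were divided among them bears on each value. The quinone reductase Nqo1 rose by 1.75 under clarithromycin, with animals at 77.06, 144.3, 29.11 and 118.6 CPM that overlapped vehicle, and this call was lost without the count filter, with only those groups in the fit, with RNA integrity as covariate, and without clarithromycin animal 1, 2 or 4 or vehicle animal 1, 2 or 3. Under telithromycin Nqo1 rose by 2.34. Gsta4 rose under telithromycin, by 1.47, and had a log2 fold change of 0.24 under clarithromycin; the difference of 1.23 passed (adjusted p = 0.0095).

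**Figure D3:**
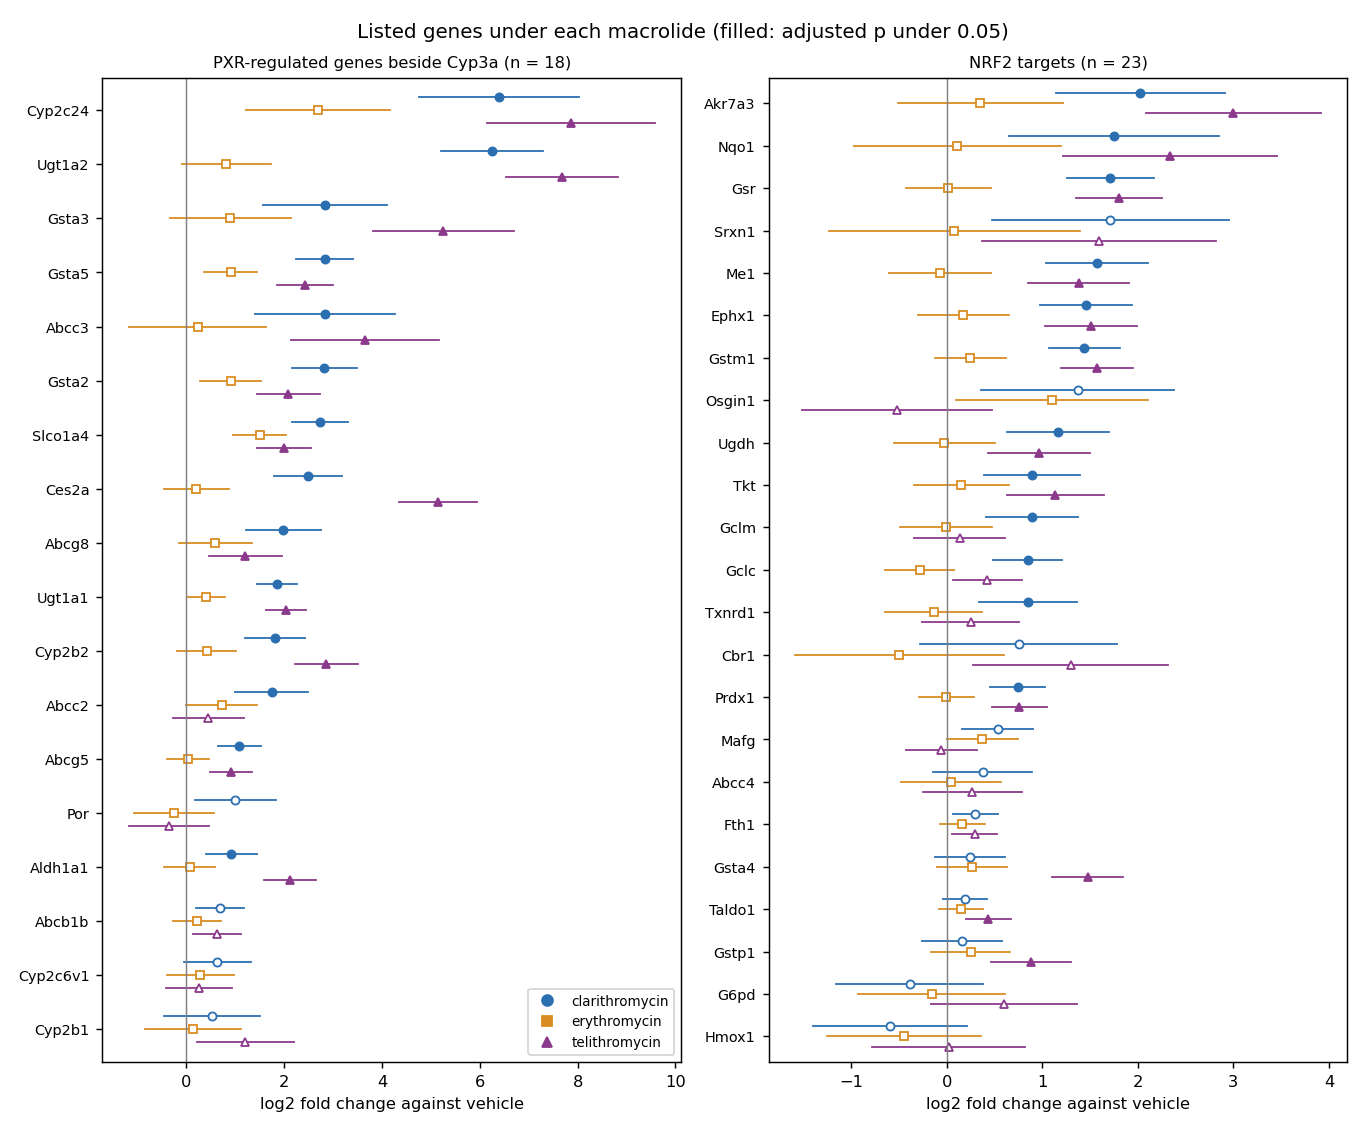
Log2 fold change against vehicle, with 95% intervals, of 18 PXR-regulated genes beside Cyp3a and 23 NRF2 targets; filled symbols passed the test. Clarithromycin and telithromycin passed in 14 and 13 of the PXR-regulated genes and in 12 NRF2 targets each, and no erythromycin symbol is filled.

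PPARalpha targets, the genes of fatty acid oxidation, moved down. Of 27 tested, clarithromycin lowered 11 and raised 0, with a median log2 fold change of -0.57. Telithromycin lowered 7 and raised 1, with a median of -0.35. Over all genes these drugs lowered 4.85% and 11.7%. Erythromycin called 0 in edgeR, with a median of -0.32 where that over all genes was 0.000; 9 were lower at an unadjusted p under 0.05, DESeq2 called 4 lower, and every erythromycin animal lay below every vehicle animal in 12 of the 27, where 3.5% of all genes did so. The same was seen for clarithromycin in 16 of the 27, against 11.4% of all genes, and for telithromycin in 6, against 9.2%. Cyp4a1, the fatty acid omega-hydroxylase, stood at 838, 838.5, 818.8 and 595.7 CPM in vehicle animals, 667.1, 457.4, 431.3 and 519.2 under erythromycin and 185.5, 206.9, 229.5 and 147.7 under clarithromycin. All clarithromycin animals lay below all erythromycin animals, which overlapped vehicle through 1 animal. Telithromycin animals had 87.89, 129.4, 140.7 and 42.34 CPM against 548.2, 381.6, 506.8 and 900.1.

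Cyp4a1 fell by 2.01 under clarithromycin and fell by 2.55 under telithromycin. Its log2 fold change under erythromycin was -0.57, with a 95% interval from -1.20 to 0.05. Clarithromycin lay below erythromycin in Cyp4a1 by -1.43 (adjusted p = 0.0125), and with the same size but no call in the nearest-library comparison (-1.45, adjusted p = 0.0628). Ehhadh, a peroxisomal oxidation enzyme, fell by 2.04 under clarithromycin and fell by 1.11 under telithromycin. Cpt2, which returns fatty acids to coenzyme A inside mitochondria, fell by 0.59 under clarithromycin and fell by 0.45 under telithromycin; its erythromycin animals, at 134.6, 141.6, 120.2 and 122 CPM, all lay below the vehicle animals at 200.6, 185.1, 174.6 and 184.7, with a log2 fold change of -0.52 and an adjusted p of 0.24. For the list, the clarithromycin count was 7 without clarithromycin animal 1 or 2 or vehicle animal 2 or 3, and 17 with only its groups in the fit or without telithromycin animal 4, whereas the telithromycin count was 2 with only its groups in the fit and 4 without its vehicle animal 4.

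Markers of liver macrophages were lower under clarithromycin and telithromycin, and so were some markers of other cell types, given after them. In bulk RNA, fewer cells of a type and less RNA per cell cannot be told apart. Of 13 macrophage markers, clarithromycin lowered 6 and telithromycin 10, with medians of -0.88 and -1.04, where 4.85% and 11.7% of all genes were lowered. Erythromycin called 0 in edgeR and DESeq2, 2 at an unadjusted p under 0.05, with a median of -0.24. The 13 markers summed to between 260 and 461 CPM under clarithromycin, 559 and 684 under erythromycin and 593 and 1160 in vehicle animals, and to between 240 and 701 under telithromycin against 667 and 925. Aif1, a cytoplasmic protein of macrophages, had 6.489, 6.949, 4.968 and 8.534 CPM under clarithromycin, 11.64, 11.75, 14.33 and 9.217 under erythromycin and 11.1, 25.81, 12.99 and 12.05 in vehicle animals. It fell by 1.20 under clarithromycin and fell by 1.20 under telithromycin.

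Vehicle animal 2 of the Han Wistar study was high in these macrophage markers: Cd5l, a secreted macrophage protein, had 341 CPM there and 71.44, 109.6 and 101.9 in the other vehicle animals. Under clarithromycin Cd5l stood at 23.63, 40.79, 26.62 and 39.06 CPM, below all vehicle animals, and fell by 2.26. Without that vehicle animal, or without clarithromycin animal 3, the clarithromycin count of macrophage markers was 3; it was 10 with only its groups in the fit and 11 without telithromycin animal 3. The telithromycin count was 2 with only its groups in the fit, 5 without telithromycin animal 4, and 6 without telithromycin animal 1 or 2 or vehicle animal 3 or 4. Telithromycin animal 3 was nearest to its vehicle animals for C1qa, a complement gene of macrophages, at 72.43 CPM, though below all of them. The other 3 had 33.54, 28.82 and 25.06 CPM and the vehicle animals 83.3, 78.53, 92.92 and 95.51. C1qa fell by 1.14 under telithromycin.

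**Figure D4:**
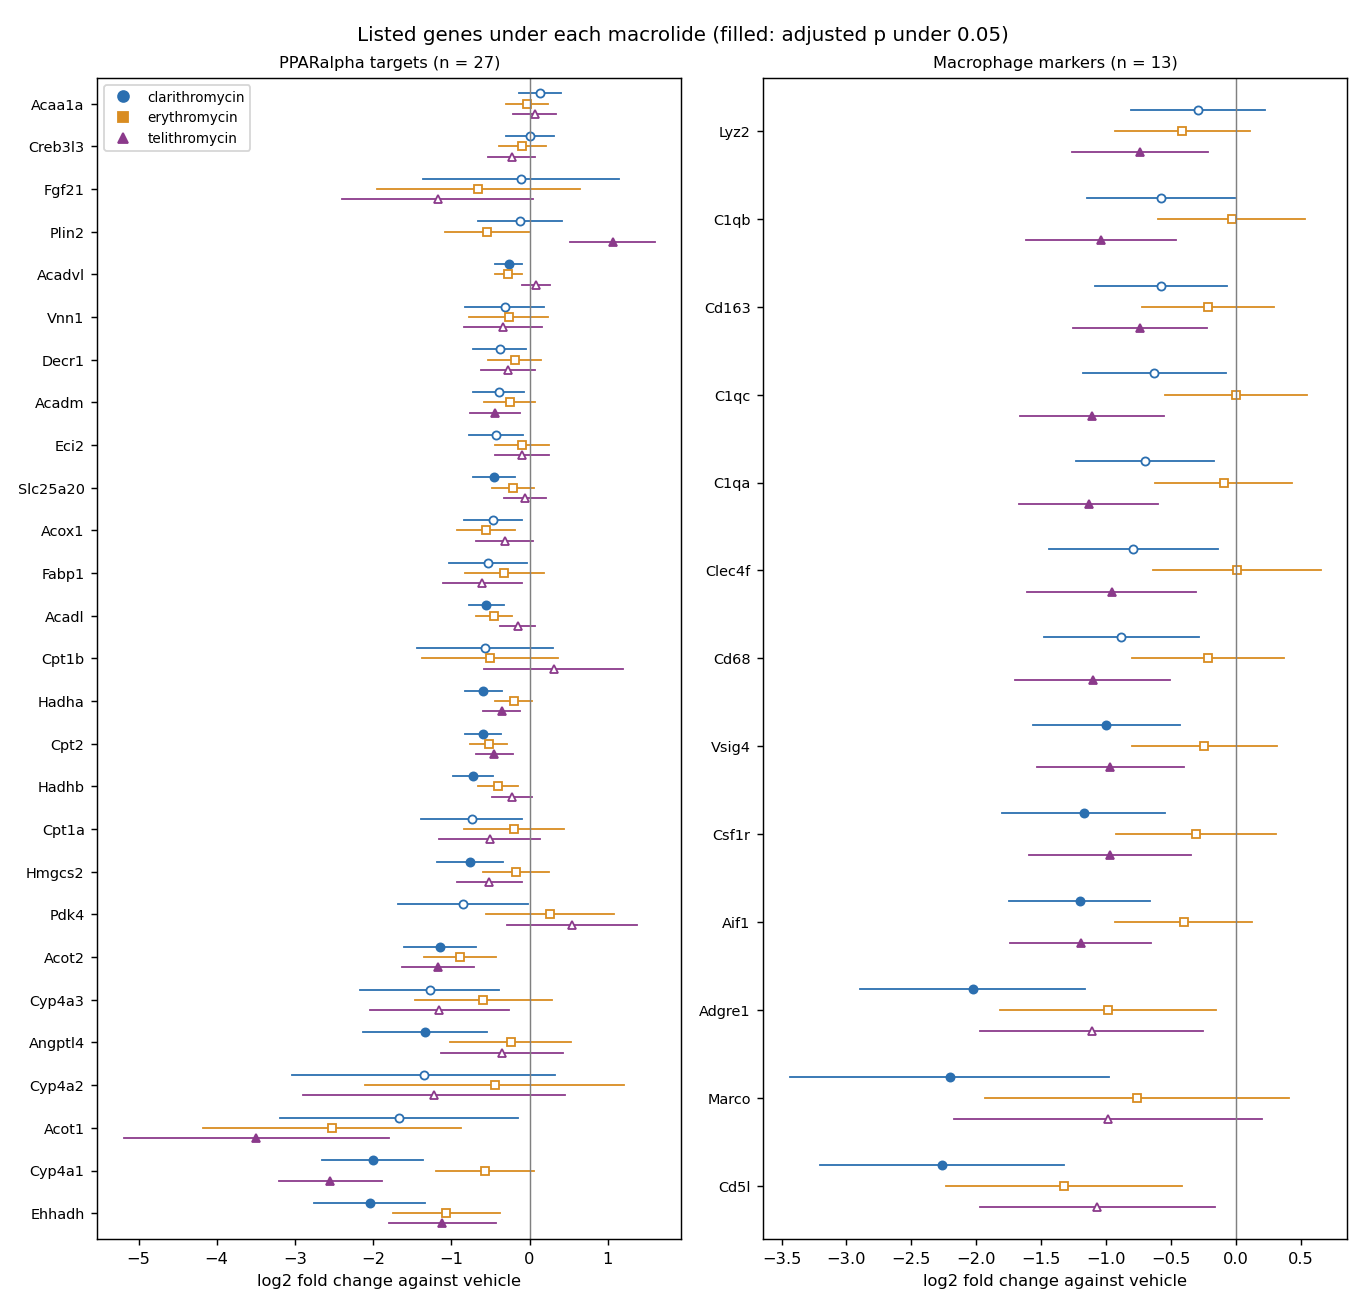
Log2 fold change against vehicle, with 95% intervals, of 27 PPARalpha targets and 13 macrophage markers; filled symbols passed the test. Clarithromycin passed in 11 PPARalpha targets, all lower, and in 6 macrophage markers, and telithromycin in 10 macrophage markers, while no erythromycin symbol is filled.

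Erythroid markers were lower too. Of 6, clarithromycin lowered 5 and telithromycin 2, with medians of -1.47 and -0.63, where 4.85% and 11.7% of all genes were lowered. Erythromycin called 0 in edgeR and DESeq2, with a median of -0.88 and 4 of the 6 lower at an unadjusted p under 0.05. The beta globin gene Hbb stood at 478.2, 365.3, 384.2 and 295.9 CPM in Han Wistar vehicle animals, 102, 227.8, 193.8 and 187.5 under erythromycin and 188.5, 168.4, 88.72 and 125.3 under clarithromycin, so every treated animal of both drugs lay below every vehicle animal. Hbb fell by 1.42 under clarithromycin; its log2 fold change under erythromycin was -1.10, with an adjusted p of 0.40. The clarithromycin count of erythroid markers was 3 without clarithromycin animal 1, 3 or 4 or vehicle animal 2. Of 13 interferon-stimulated genes, clarithromycin lowered 3 and telithromycin 7, among them the antiviral Mx2, which fell by 1.62 and fell by 2.00. Those counts were 6 and 2 with only the groups compared in the fit; the clarithromycin count was 1 without its animal 1 or 2, and the telithromycin count was 3 without telithromycin animal 1 or 4 or vehicle animal 3 or 4 and 4 without the count filter or with RNA integrity as covariate. Of 10 neutrophil and 9 pancreas markers only 1 each passed the count filter. These 2 genes had at most 0.75 and 2.61 CPM in any animal, and the other markers of both lists were not tested.

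Markers of other liver cells moved in the same direction in part. Of 13 stellate and fibroblast markers clarithromycin lowered 3 and raised 0, with a median of -0.54 and 7 lower at an unadjusted p under 0.05, and telithromycin lowered 3 and raised 1, with a median of -0.365. Of 11 endothelial markers clarithromycin lowered 1 and telithromycin 2, with medians of -0.37 and -0.33 and 7 and 4 lower at an unadjusted p under 0.05. Over all genes clarithromycin lowered 4.85%, and telithromycin lowered 11.7% and raised 13.7%. The counts of endothelial markers called lie near those shares. Of 6 lymphocyte markers tested telithromycin lowered 2, and clarithromycin called 0 in edgeR, 0 at an unadjusted p under 0.05 and 1 with DESeq2. None of the markers of these 3 lists was at 0 throughout. The stellate and fibroblast markers summed to between 637 and 800 CPM under clarithromycin and 821 and 1070 in vehicle animals, and to between 340 and 554 under telithromycin against 333 and 689. The endothelial markers summed to between 280 and 364 CPM under clarithromycin against 381 and 434, and to between 194 and 341 under telithromycin against 314 and 368. The 6 lymphocyte markers tested summed to at most 10.3 CPM in any animal. With only the groups compared in the fit, clarithromycin lowered 4 endothelial and 4 stellate and fibroblast markers and telithromycin 1 and 0. The stellate and fibroblast count of clarithromycin was 1 without any 1 of its animals, without vehicle animal 2 or 4, or without the count filter. The part of these markers in the macrophage result was not tested.

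Hepatocyte markers and amino acid metabolism set clarithromycin apart from erythromycin only in part. Of 16 hepatocyte markers, clarithromycin lowered 4 and lay below erythromycin in 5, and of 16 urea cycle and amino acid genes it lowered 4 and lay below erythromycin in 3. Over all genes it lowered 4.85% and lay below erythromycin in 2.18%. Neither of those differences held in the nearest-library comparison, where both counts were 0. Got1, the cytosolic aspartate aminotransferase, had 638.5, 623, 417.5 and 569.4 CPM in vehicle animals, 437, 370.8, 266.4 and 306.3 under erythromycin and 135.1, 108.9, 121.3 and 175.4 under clarithromycin. It fell by 2.06 under clarithromycin. Ass1, an enzyme of the urea cycle, fell by 1.06 under clarithromycin and lay below erythromycin by -0.88, a difference that was also lost without clarithromycin animal 1, 2 or 3 or erythromycin animal 1 or 2. Telithromycin lowered 5 of the hepatocyte markers and raised 2, with a median of -0.45, where it lowered 11.7% and raised 13.7% of all genes. It lowered 0 of these markers with only its groups in the fit and 2 without telithromycin animal 1. Their sum lay between 88400 and 155000 CPM under telithromycin against 153000 and 199000 in its vehicle animals. The summed hepatocyte markers lay between 147000 and 162000 CPM under clarithromycin, 206000 and 236000 under erythromycin and 214000 and 223000 in vehicle animals, and their part in the other results was not tested.

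Of single genes, Ido2, Me1, Lrat and Mcoln1 differed between clarithromycin and erythromycin and kept that call in the nearest-library comparison. Ido2, an enzyme that opens the ring of tryptophan, stood at 4.602, 3.481, 3.608 and 5.255 CPM in vehicle animals, 6.297, 7.432, 4.843 and 5.509 under erythromycin and 2.433, 1.379, 0.6093 and 0.93 under clarithromycin. Clarithromycin lay below both groups, and the difference from erythromycin was -2.18 (adjusted p = 0.0026). Me1, which makes NADPH from malate and is counted above among the NRF2 targets, rose by 1.57 under clarithromycin, to 50.61, 96.75, 62.06 and 54.82 CPM from 22.58, 28.05, 17.63 and 20.55, while erythromycin animals had 17.28, 21.16, 26.03 and 20.08. Clarithromycin exceeded erythromycin in Me1 by 1.65 (adjusted p = 0.0025). Lrat, which esterifies retinol and is among the stellate and fibroblast markers, fell by 1.12 and lay below erythromycin by -0.96 (adjusted p = 0.0028), and the lysosomal channel gene Mcoln1 rose by 1.06 and exceeded erythromycin by 1.02 (adjusted p = 0.0025). Telithromycin raised Me1 and Mcoln1 by 1.38 and 0.52 and lowered Lrat by 0.47, while its Ido2 log2 fold change was 0.33 (adjusted p = 0.45) and exceeded that of clarithromycin by 2.00 (adjusted p = 0.018).

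Tor3a, the gene called under erythromycin, was called under clarithromycin too. Vehicle animals had 26.98, 18.91, 16.39 and 14.86 CPM, erythromycin animals 6.398, 3.836, 3.901 and 7.204, and clarithromycin animals 5.84, 7.108, 8.437 and 6.62. Both drugs lay entirely below vehicle and overlapped each other. Tor3a fell by 1.85 under erythromycin (adjusted p = 0.0211) and fell by 1.46 under clarithromycin (adjusted p = 0.0027), which differed by 0.39 with a 95% interval from -0.18 to 0.95. The erythromycin call was lost with only its groups in the fit and without erythromycin animal 1, 2 or 3 or vehicle animal 1 or 2. In the Sprague Dawley animals Tor3a was low in vehicle already, at 2.761 to 4.047 CPM, and the telithromycin log2 fold change was 0.42 (adjusted p = 0.26).

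The telithromycin effect exceeded that of clarithromycin in 1 of 16 bile acid genes, 2 of 16 clock genes and 1 of 31 proliferation genes and lay below it in 0 of each, where 2.18% of all genes were higher. In these 3 lists the genes described next are single genes and do not stand for their lists. Of 12 p53 targets it was higher in 3, Cdkn1a, Ccng1 and Sesn1, and lower in 0. Against vehicle telithromycin raised 1 of those 12 (13.7% of all genes), and clarithromycin raised 1 and lowered 2 (5.89% and 4.85%). Cyp8b1, which sets the share of cholic acid among bile acids, had 294.9, 550.5, 519.4 and 813.1 CPM in Han Wistar vehicle animals and 54.62, 14.69, 151 and 90.92 under clarithromycin, and fell by 2.81 (adjusted p = 0.0056). Telithromycin animals had 549.7, 991.1, 556 and 498.6 CPM against 326.6, 469.2, 419.5 and 851.5, a log2 fold change of 0.33 (adjusted p = 0.67). The difference of the effects, 3.13 (adjusted p = 0.0247), was lost with RNA integrity as covariate and without clarithromycin animal 1. Vehicle levels of Cyp8b1 overlapped between the strains. Clarithromycin lay below erythromycin in Cyp8b1 by -2.45 (adjusted p = 0.0175), a difference lost in the nearest-library comparison, with only those groups in the fit, and without clarithromycin animal 1 or erythromycin animal 1.

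The cell cycle inhibitor Cdkn1a rose by 3.10 under telithromycin, to 22.9, 23.03, 9.226 and 8.799 CPM from 1.167, 4.004, 1.898 and 0.4577. All 12 Han Wistar animals, treated or not, had between 13.88 and 60.27 CPM, so vehicle levels of the strains did not overlap. The effect exceeded that of clarithromycin by 3.61 (adjusted p = 0.0093). In another Sprague Dawley study, that of azithromycin described below, vehicle animals had 20.7, 24.72, 3.05 and 9.24 CPM of Cdkn1a. They overlapped the telithromycin animals. The clock gene Arntl rose by 3.11, with telithromycin animals at 24.46, 28.99, 4.973 and 19.57 CPM and vehicle animals at 5.749, 1.267, 1.194 and 0.9876. Han Wistar animals lay between 42.38 and 55.2 CPM in every group. Vehicle animals of the azithromycin study had 20.76, 25.84, 3.05 and 4.947 CPM of Arntl and also overlapped the telithromycin animals. The part of the study in the Cdkn1a and Arntl values was not tested. Dbp, an output gene of the clock, fell by 2.00, with telithromycin animals at 26.16, 11.28, 135.6 and 30.94 CPM and vehicle animals at 137, 172.4, 225.9 and 275. Telithromycin animal 3 was nearest to the vehicle animals of its own study for Dbp, and overlapped 1 of them for Arntl. Of 16 clock genes telithromycin raised 3 and lowered 5, where it raised 13.7% and lowered 11.7% of all genes. Clarithromycin and erythromycin called 0 in edgeR and DESeq2 (1 and 0 at an unadjusted p under 0.05). The telithromycin counts were 2 and 2 with only its groups in the fit and 3 lower without telithromycin animal 1, 2 or 4 or vehicle animal 3 or 4, without the count filter, or with RNA integrity as covariate.

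Of 31 proliferation genes telithromycin raised 12, with a median log2 fold change of 1.08, where it raised 13.7% of all genes. Clarithromycin raised 1 (median 0.05), where it raised 5.89% of all genes. Erythromycin raised 0 (median 0.43), with 1 at an unadjusted p under 0.05 and 0 with DESeq2. Without a test, every erythromycin animal lay above every vehicle animal in 7 of the 31 and below in 1. Over all genes 3.46% and 3.5% did so. Every telithromycin animal lay above its vehicle animals in 4 (9.58% of all genes), and every clarithromycin animal in 2 (12.5%). Tyms, which makes thymidylate for DNA, had 6.19, 5.261, 5.392 and 8.377 CPM under telithromycin against 1.878, 3.025, 2.325 and 2.288 in vehicle animals and rose by 1.41. For Tyms the effect exceeded that of clarithromycin by 1.26 (adjusted p = 0.0056). Top2a, a topoisomerase of dividing cells, rose by 1.89 with animals at 9.624, 4.501, 1.498 and 2.253 CPM that overlapped their vehicle animals (0.5407, 1.44, 2.069 and 0.7467). The telithromycin count of proliferation genes was 2 with only its groups in the fit, 5 without telithromycin animal 1 or vehicle animal 4, and 6 without vehicle animal 1.

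Gne, the first enzyme of sialic acid synthesis, fell under both drugs but further under telithromycin. It had 59.26, 68.98, 60.4 and 72.98 CPM in Han Wistar vehicle animals and 42.99, 36.02, 39.32 and 26.53 under clarithromycin. Sprague Dawley vehicle animals had 228.8, 233.9, 169.2 and 214.9 CPM and telithromycin animals 33.96, 22.04, 55.54 and 26.36, so that treated animals of the 2 strains overlapped while vehicle animals did not. Gne fell by 0.85 under clarithromycin and fell by 2.62 under telithromycin, a difference of -1.77 (adjusted p = 0.006). Gpam, which starts triglyceride synthesis, rose by 1.77 under telithromycin, to 79.16, 62.08, 34.69 and 103.5 CPM from 25.27, 20.77, 23.16 and 12.77, and its effect exceeded that of clarithromycin by 1.59 (adjusted p = 0.017). Han Wistar vehicle animals had 129.3, 87.11, 120.9 and 110.7 CPM of Gpam. Vehicle animals of the azithromycin study had 51.31, 74.21, 28.67 and 25.83 CPM of Gpam and overlapped the telithromycin animals. For Gne they had 175.9, 133.4, 127.7 and 128.2 CPM and did not overlap them.

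**Figure D5:**
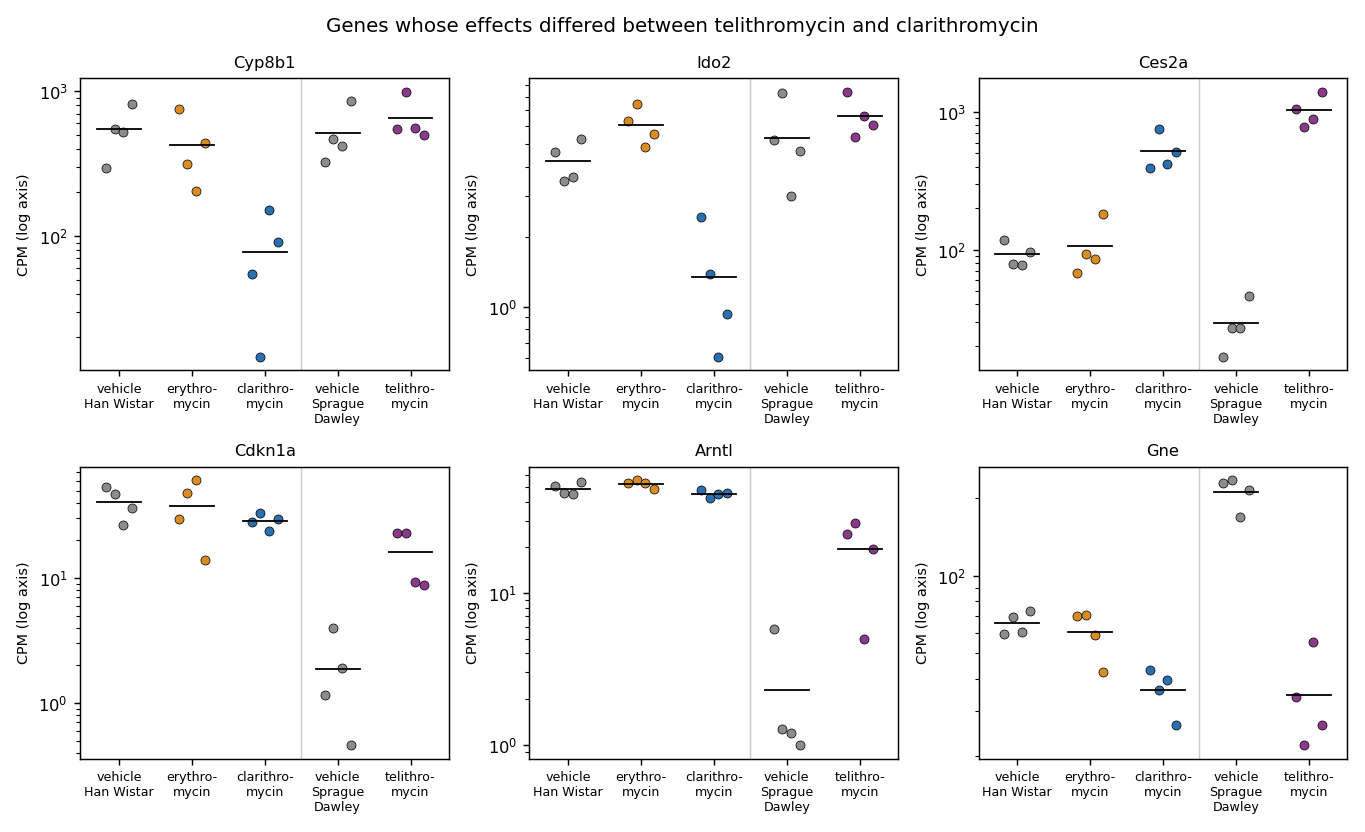
CPM per animal on a log axis for 6 genes whose telithromycin and clarithromycin effects differed, with Han Wistar groups left of the grey line and Sprague Dawley groups right of it; each point is 1 animal and each bar the group mean. For Gne, Ces2a, Cdkn1a and Arntl the vehicle animals of the strains do not overlap, and for Cyp8b1 clarithromycin animals, at 14.69 to 151 CPM, lie below every other animal shown.

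Azithromycin, a macrolide whose ring is enlarged by a methyl-substituted nitrogen, was given at the same dose and for the same time in another Sprague Dawley study. Its effect can be set beside those of the 3 drugs, each against its own vehicle. Strain and study both differ from those of clarithromycin and erythromycin, whereas telithromycin shares the strain and differs in study. The compound cannot be told apart from these. Azithromycin animals had 658, 288.1, 348.4 and 561.1 CPM of Cyp3a23/3a1 against 3037, 4253, 4554 and 3564 in their vehicle animals, so this gene fell by 3.05 on the log2 scale (adjusted p = 5.62e-10). The clarithromycin effect on Cyp3a23/3a1 exceeded the azithromycin effect by 6.79 (adjusted p = 8.22e-13), the telithromycin effect by 6.79 (adjusted p = 8.22e-13) and the erythromycin effect by 3.94 (adjusted p = 4.08e-09). For Cyp3a18, which fell by 3.89 under azithromycin, the erythromycin effect was higher by 4.96 (adjusted p = 4.86e-10), and for Slco1a4, which fell by 2.20, by 3.68 (adjusted p = 4.94e-08).

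Across lists the differences from azithromycin were widespread, in a fit of 7 groups and 13590 genes where clarithromycin exceeded azithromycin in 15% of genes and lay below it in 16.5%. For erythromycin these shares were 16% and 18.1%, and for telithromycin 13.8% and 14.5%. Of the 18 PXR-regulated genes, 14 were higher and 0 lower for clarithromycin, 6 and 4 for erythromycin, and 12 and 1 for telithromycin. Of 24 NRF2 targets, 5 were higher and 4 lower for clarithromycin, 2 and 14 for erythromycin, and 3 and 4 for telithromycin. Azithromycin itself called 6309 of 13590 genes against its own vehicle, 3356 higher and 2953 lower. It raised 17 and lowered 0 of the 24 NRF2 targets, with a median log2 fold change of 0.964. Of the 18 PXR-regulated genes it raised 6 and lowered 7. Each difference therefore holds the azithromycin effect as well as that of the drug set against it. Gsr, which rose by 1.01 under azithromycin, was lower for erythromycin by -1.003 (adjusted p = 0.0072). The lysosomal and macrophage gene Gpnmb rose by 3.98 under azithromycin, and the effects of clarithromycin, erythromycin and telithromycin lay below that by -4.31, -4.38 and -4.19 (adjusted p = 3.62e-06, 3.08e-06 and 5.05e-06); Gpnmb was chosen after its values were seen.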

How the data were processed

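The deposited tables hold expected counts (estimated reads per gene, not normalised) made by the authors on build Rnor 6.0, per the submitters' processing notes; the aligner and quantifier are not given in the sources used here. The Ensembl table (32893 entries, 87.53% of values above 0 whole) was rounded and analysed; the authors' RefSeq table (34335 entries) was an alternative and the source of Cyp3a2 and Abcb1a. An entry for the Ugt1a locus that repeats the sum of its 10 transcripts was dropped. The labels' treatment, study and vehicle gave the groups; 40 libraries were used and 703 sample columns were not. Libraries of 1 animal were summed, so n counts animals, 4 per group.

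Genes were filtered with filterByExpr, scaled by TMM and tested 2-sided by the robust quasi-likelihood F test of edgeR 4.0.16 (R 4.3.3) in 1 fit of 5 groups and 20 animals (7 groups and 28 animals for azithromycin). Benjamini-Hochberg adjustment ran over genes, or over genes and 3 pairs for differences between drugs, with a threshold of 0.05. Intervals are 95% and cover variation between animals. Alternatives were DESeq2 1.42.0, RLE factors, no filter, the RefSeq table, a minimum log2 fold change of 1, only the groups compared, RNA integrity as covariate, nearest vehicle libraries, adjustment within each pair, and each animal left out. Code was tested on simulated counts. The members and the 36 gene lists were chosen with earlier results of these data known, and repeats of list counts beyond RLE and RefSeq were added after seeing the data.

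Genes named are, in each comparison, the 8 called genes that increased most and the 8 that decreased most (at least 5 CPM in the higher group, no overlap within a study), or else the smallest p-values up to 8; all Cyp3a genes; and up to 4 called members of each list. Not all are printed. Abcb1a and Gpnmb fall outside the rule and were chosen after their values were seen.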

Additional observations from a re-analysis of the deposited data

Results flagged for a closer look

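Of 185 groups of 4 animals checked, 11 held an animal whose gap to the nearest other animal was a larger share of the group's range than Dixon's 95% limit allows; chance gives about 1 in 20 such groups. For Cyp3a23/3a1 the lowest erythromycin animal had a gap of 0.917 of the range (4143 CPM, the others 6487 to 6700). For Gpx2 telithromycin animal 4 had a gap of 0.867 (69.73 CPM, the others 3.741 to 12.51). For Gstm3l, a glutathione transferase gene, the gap was 0.875 in Sprague Dawley vehicle animal 1 (1.081 CPM, the others at most 0.3457), and for Arntl 0.941 in the same animal (5.749 CPM, the others at most 1.267).

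Han Wistar vehicle animal 2 was highest for Cd5l with a gap of 0.858 (341 CPM) and for Aif1 with 0.872 (25.81 CPM), and vehicle animal 4 of that study was lowest for Cyp4a1 with 0.919 (595.7 CPM). Under telithromycin, animal 2 was highest for Cyp8b1 with a gap of 0.883 (991.1 CPM), animal 4 lowest for Hbb with 0.888 (28.05 CPM) and animal 3 highest for Hsd17b2, a steroid dehydrogenase gene, with 0.844 (381.3 CPM). For Grin2c, a glutamate receptor subunit gene, erythromycin animal 1 was highest with a gap of 0.862 (0.403 CPM, a level of few reads).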

How the results depend on the processing

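Of the calls of single named genes, 0 reversed under the alternatives run, but many were lost. With a minimum log2 fold change of 1, 99 of 327 were lost, and with only the groups compared in the fit 88 of 326. RNA integrity as covariate lost 72 of 327, nearest vehicle libraries 61 of 326 and no count filter 61 of 327. Leaving out clarithromycin animal 2 lost 78 of 327. DESeq2 lost 0 of 326 and RLE factors 4 of 327. The balance of calls higher and lower over all genes also turned in places. Clarithromycin against vehicle went from 784 higher and 646 lower to 204 and 231 with a minimum log2 fold change of 1, and erythromycin from 0 and 1 to 18 and 17 with DESeq2, 3 and 1 with the nearest vehicle libraries, and 4 and 1, 2 and 1, and 3 and 1 without erythromycin animal 4, telithromycin animal 2 or telithromycin animal 3. Telithromycin minus clarithromycin, at 291 and 273, was 199 and 204 with the nearest vehicle libraries and had more lower than higher calls also without clarithromycin animal 3 or 4, Han Wistar vehicle animal 4 or Sprague Dawley vehicle animal 3 or 4. Erythromycin minus azithromycin went from 2171 and 2466 to 2364 and 2299 with RLE factors, and telithromycin minus azithromycin from 1877 and 1972 to 2024 and 1835; both turned also with DESeq2 and without azithromycin animal 4. Against vehicle, clarithromycin called 435 genes and telithromycin 836 with a minimum log2 fold change of 1, and 2507 and 834 with only the groups compared in the fit; erythromycin called 35 with DESeq2, 0 with only its groups in the fit and 4 with the nearest vehicle libraries. Clarithromycin minus erythromycin gave 1279 calls with DESeq2, 198 with a minimum log2 fold change of 1 and 229 with the nearest vehicle libraries. Telithromycin minus clarithromycin gave 1072 with DESeq2, 359 without the count filter, 170 with the minimum change and 277 with RNA integrity as covariate. Telithromycin minus erythromycin gave 1421 with DESeq2, 330 with the minimum change, 464 with RNA integrity and 457 with the nearest vehicle libraries. With each animal left out in turn, the counts ran from 686 (without Han Wistar vehicle animal 2) to 1999 (without telithromycin animal 4) for clarithromycin, from 0 to 5 for erythromycin and from 2299 to 4256 for telithromycin. For the pairs they ran from 395 (without clarithromycin animal 2) to 1205, from 317 (without clarithromycin animal 1) to 963 (without telithromycin animal 3) and from 481 (without Han Wistar vehicle animal 2) to 1500 (without telithromycin animal 3), in the order above. The comparisons with azithromycin stayed within 1.5 times their counts in every setting run. The causes were not tested. No paired analysis was possible because animals carry no numbers that link one group to another. The typical interval of 0.356 to either side of a log2 fold change limits what 4 animals per group can show, above all for erythromycin, and genes near 0 CPM in vehicle have fold changes of uncertain size.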

Other observations

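Beyond the gene groups described so far, ATF4 targets, which serve amino acid supply under stress, rose in part. Of 19, clarithromycin raised 3 and telithromycin 7, with median log2 fold changes of 0.26 and 0.36, where 5.89% and 13.7% of all genes were raised. Erythromycin called 0 in edgeR and DESeq2, 1 at an unadjusted p under 0.05, with a median of -0.03. Psat1, an enzyme of serine synthesis, had 3.839, 14.22, 3.984 and 1.86 CPM under clarithromycin against 1.105, 0.9814, 0.8135 and 1.807 in vehicle animals and rose by 2.34, and it rose by 1.66 under telithromycin. Telithromycin called 0 of the ATF4 targets with only its groups in the fit, 1 without telithromycin animal 4, 2 without vehicle animal 4, 3 without vehicle animal 2 and 4 without telithromycin animal 1. Of 25 lysosomal genes clarithromycin raised 3 and lowered 1, and telithromycin raised 8 and lowered 3, among them Ctsd, a lysosomal protease, which rose by 0.62 and 1.15. Clarithromycin raised 5.89% and lowered 4.85% of all genes, and telithromycin 13.7% and 11.7%. The counts of lowered lysosomal genes lie near those shares. The telithromycin count of raised lysosomal genes was 1 with only its groups in the fit, 4 with RNA integrity as covariate or without telithromycin animal 4 or vehicle animal 2, and 5 without telithromycin animal 1 or vehicle animal 3, and the clarithromycin count was 1 without clarithromycin animal 1 or 2 or vehicle animal 2 or 3 and 5 with only its groups in the fit.

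Of 7 AhR targets telithromycin raised 3, where it raised 13.7% of all genes. Among these is Nqo1, counted above with the NRF2 targets. Cyp1a1, the gene most used to report this receptor, had 4.197, 3.449, 0.5991 and 21.19 CPM under telithromycin against 0.4838, 0.5761, 0.8104 and 0.6504 in vehicle animals. It rose by 3.55 (adjusted p = 0.0115), a call lost without telithromycin animal 4, and its telithromycin animals overlapped vehicle. Grin2c, a glutamate receptor subunit gene, was the largest increase named for telithromycin, by 8.29, with 43.8, 17.83, 2.396 and 58.11 CPM against at most 0.1706 in vehicle animals. Under clarithromycin Grin2c rose by 5.13, to 5.678, 11.78, 3 and 4.486 CPM. Of 13 mitochondrially encoded mRNAs, which are made beside a ribosome of bacterial descent, clarithromycin, erythromycin and telithromycin called 0 in edgeR, with medians of 0.08, 0.19 and -0.11; 0, 3 and 1 had an unadjusted p under 0.05, and DESeq2 called 0, 1 and 1. Of 24 cholesterol synthesis genes clarithromycin and erythromycin called 0 in edgeR, with medians of 0.36 and 0.54 against about 0 over all genes. For these drugs 3 and 12 had an unadjusted p under 0.05, all 12 higher under erythromycin, and DESeq2 called 1 and 0. Telithromycin raised 2 and lowered 2 of the 24, below its shares of all genes (13.7% and 11.7%).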
